A study of Gallus gallus with 28 samples.

Results

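The proteasome genes of the chick intestine were followed from late embryo to the second week after hatch. Members were all gene symbols that begin with PSM, a letter from A to G and a number in the probe annotation of an Affymetrix chicken array, with 1 probe set per symbol, the brightest over all arrays. This gave 37 of the 13009 genes on the array, and all 37 passed the filter on low values (log2 intensity over 4 in at least 4 arrays), as did 8396 genes in all. By role they are 7 alpha-ring and 6 beta-ring subunits of the core, 5 ATPases and 2 non-ATPases of the base, 6 lid subunits, 3 activators or inhibitors and 7 assembly chaperones. The remaining gene, PSMC3IP, carries the prefix only: it encodes a partner protein of meiotic recombination, and without it 36 members remain.

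Proteins tagged with chains of ubiquitin are degraded by the proteasome, a barrel of stacked alpha and beta rings capped by a regulatory particle. The base of that particle unfolds the substrate with a ring of ATPases and threads it into the barrel, while the lid removes the ubiquitin, and dedicated chaperones help to build rings and base without staying in the finished particle. The intestinal epithelium is renewed throughout life and handles large amounts of dietary and newly made protein. The roles given below are known mainly from yeast and mammals.

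The series held 28 arrays of total RNA, with 4 for every age. The 7 ages were embryonic day 18 (e18), embryonic day 20 (e20), hatch, and 1 day (d1), 3 days (d3), 7 days (d7) and 14 days (d14) after hatch. All birds were male and untreated as far as the labels say, and RNA of intestinal segments came from 6 birds at each age. Birds belonged to 2 lines, A and B, and were sampled in 2 pools, but neither is given for single arrays, so both may add to the spread within an age. The 4 arrays of an age are numbered here in the order of their records, and nothing says that they came from separate birds, so the p-values rest on a spread that may be technical. Within every age arrays 1 and 2 were each other's nearest by correlation over all genes, as were arrays 3 and 4 in all ages but hatch, 26 of 28 arrays. With such pairs as a random block the correlation within a pair was estimated at 0.33, and the counts this moves are given below. Whole organ RNA mixes cell types, so fewer cells of a type and less RNA per cell cannot be told apart.

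The 2 sources disagree on the tissue: each sample is labelled whole intestine, but the series' design speaks of small intestine, and which applies is not settled here. By their markers, the arrays held the transcripts of absorptive cells: all 13 enterocyte markers were above background at every age. Their summed intensity was 154134.6 to 166876.5 on the d14 arrays, against 10706.6 to 15017.3 on the e18 arrays. Markers of other cell types also moved. Fibroblast and matrix markers summed to 23716.3 to 30027.5 at d14, against 81679.8 to 102521 at e18, and T cell markers to 6856.5 to 8535.6, against 273.2 to 427.5. Macrophage and heterophil markers summed to 9007.6 to 15950.7 at e18, against 1403.5 to 1895.5 at e20, and erythroid markers to 12740.4 to 16253.4, against 1333.7 to 2051.8. At d14 the macrophage and heterophil sum was higher than at both, at 26113 to 28269.3, and the erythroid sum was 3921.9 to 5211.8. The e18 arrays also held exocrine pancreas transcripts, whose 12 markers summed to 56720.1 to 72053.4 there, against 186.1 to 708.8 at e20. For the members, d14 is therefore set against both embryonic ages below. Some later arrays held less of the pancreas transcripts: the sums were 195.3 to 3741.1 at d3 and 285.1 to 4728.7 at d14. The 13 proliferation markers summed to 3900.6 to 5964.9 at d14, against 15320.4 to 16143.8 at e18 and 10904.4 to 14965.6 at e20. RNA quality also moved with age: control probe sets at the 3' and 5' ends of the actin and GAPDH transcripts differed by a mean log2 value of 0.33 at e18, 1.44 at e20, 0.92 at hatch, 1.96 at d1, 1.14 at d3, 0.90 at d7 and 0.88 at d14, where a larger difference means less signal from the 5' end. Median linear intensity over all probe sets, before log2 was taken, lay between 7.39 and 8.00 per array.

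Proteasome genes varied with age, but over a narrow range. The F-test over the 7 ages called 33 of 37 members at an adjusted p under 0.05 (limma, Benjamini-Hochberg over all genes tested), beside 90.1% of all genes. The means of a member's 7 ages spanned a median of 0.61 log2 units, against 1.05 over all genes tested, and 32 of 37 spanned less than that median of all genes. Some related lists were as narrow: the medians were 0.52 for other proteasome-associated genes, 0.54 for the COP9 signalosome and 0.63 for ubiquitin conjugating enzymes. Those of eIF3 and the CCT chaperonin, treated below, were 1.22 and 1.34. The 6 members spanning over 1 log2 unit were PSMD10 (1.84), PSMG4 (1.83), PSMC3IP (1.52), PSMG1 (1.35), PSMD2 (1.27) and PSMB1 (1.05). The 4 members not called were PSMB2, PSMB5, PSMD9 and PSMF1, with spans of 0.34, 0.19, 0.25 and 0.20. PSMB5, which encodes the chymotrypsin-like catalytic subunit, was read by a probe set near the low end (5.79 to 6.27 over all arrays), whose identifier marks possible cross-hybridisation.

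**Figure D1:**
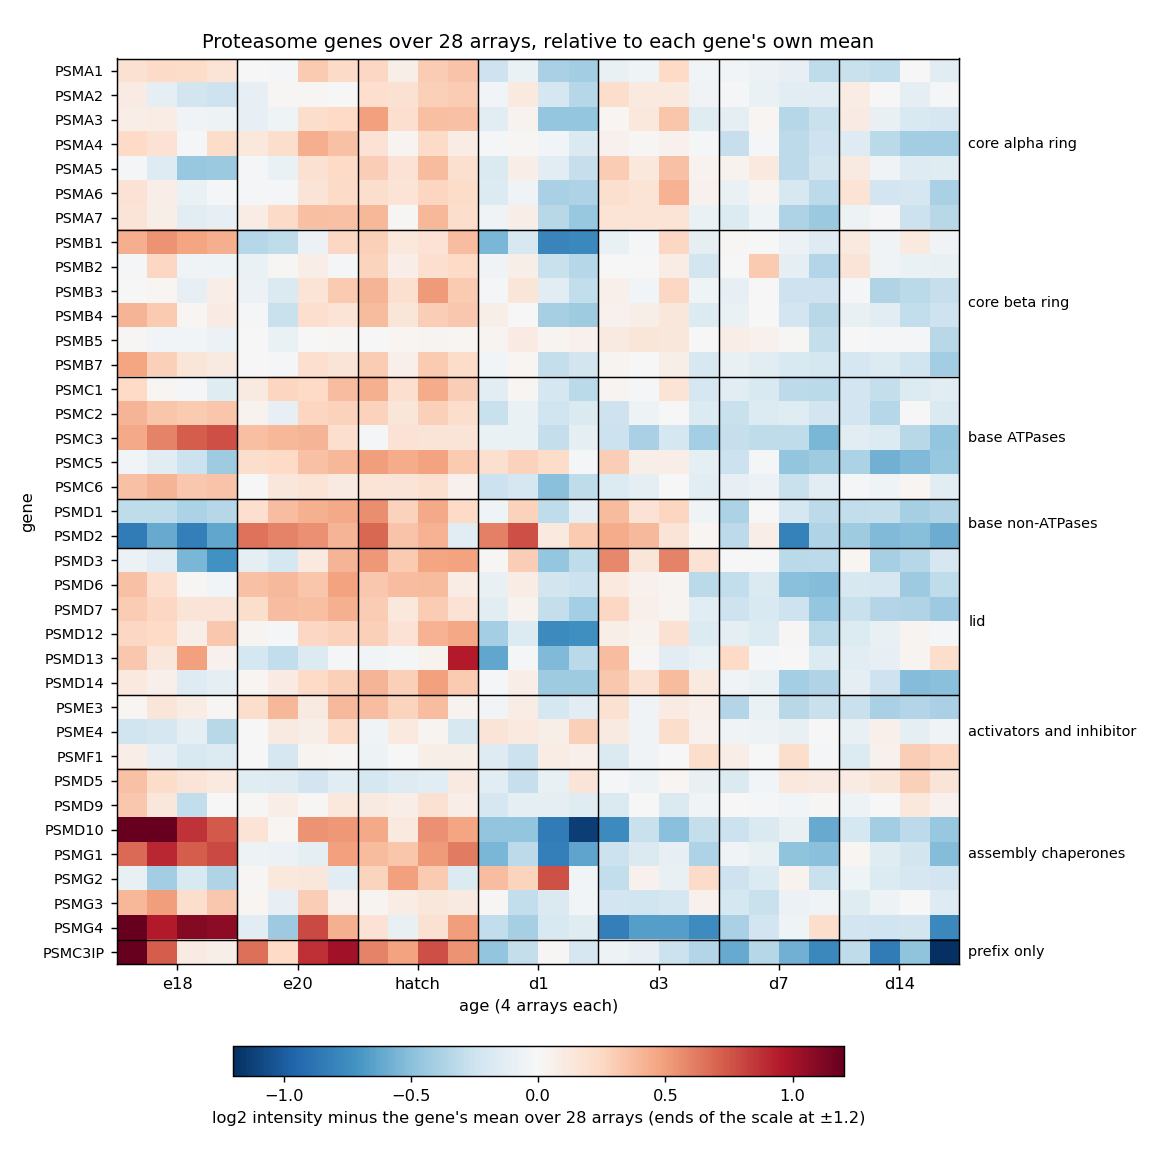
Log2 intensity of the 37 genes (down the page, grouped by role) on each of the 28 arrays (across, by age), shown as the difference from the gene's own mean over all arrays: red is above it and blue below. Red dominates at hatch and blue at d1, d7 and d14, while PSMD1 and PSMD2 are blue at e18 and red at e20.

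Hatch was the age of the highest mean for 15 of 37 members and e18 for 11, while the lowest mean fell at d1 for 12 and at d14 for 10. Among all genes tested 12.2% had their highest mean at hatch and 32.4% at e18, beside 40.5% and 29.7% of the members. The lowest mean fell at d1 for 14.6% of all genes and at d14 for 23.5%, beside 32.4% and 27% of the members. A peak at hatch was not particular to the members. Of 9 genes of the COP9 signalosome, a complex built like the lid, 44.4% were highest at hatch and 44.4% lowest at d1. Of 10 eIF3 and 8 CCT genes, treated below, 0% were highest at hatch. These means are not adjusted for RNA quality, and some highest means were near ties (PSMD1 9.19 at hatch and 9.17 at e20). With the 3' to 5' difference as a covariate, the members' median change was -0.003 for hatch against e20. It was -0.19 for d1 against hatch, and no member was called in either. The mean of the alpha ring, taken relative to each gene's own mean, was 0.24 ± 0.09 log2 units at hatch and -0.18 ± 0.17 at d1 (SD, n = 4 arrays). For the lid the same values were 0.32 ± 0.09 at hatch and -0.25 ± 0.23 at d1. The base ATPases stood at 0.23 ± 0.05 at e18, 0.22 ± 0.07 at e20 and 0.25 ± 0.05 at hatch, and between -0.25 and -0.09 at all 4 later ages. Arrays of the 3 early ages and of the 4 later ages did not overlap for the ATPases, which the plot of group means by array shows.

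**Figure D2:**
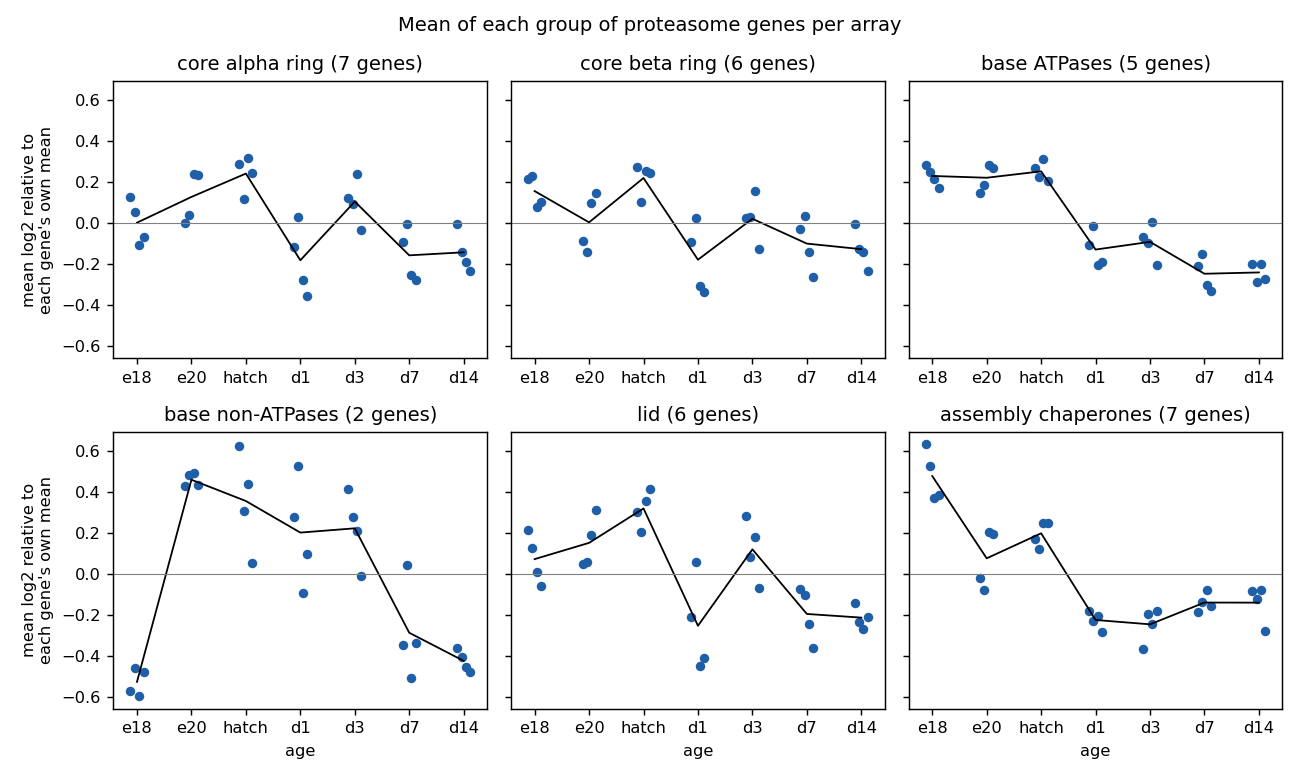
Mean log2 value of each group of proteasome genes relative to each gene's own mean (vertical axis) by age, with a point for each array and a line through the age means. Core and lid peak at hatch and dip at d1, the base ATPases form a high early and a low late level, the non-ATPases are low at e18, and the assembly chaperones are highest at e18. Values are not adjusted for RNA quality.

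At the ends of the series, most proteasome genes that changed were lower in the older chick. Between d14 and e18, 21 of 37 members fell and 1 rose, against 40.5% of all genes lower and 33.2% higher. The median change was -0.27 log2 units over the members and -0.07 over all genes tested. Between d14 and e20, 19 members fell and 1 rose, against 40.4% of all genes lower and 27.2% higher, with medians of -0.28 and -0.13. The 2 comparisons share the d14 arrays. All 4 d14 arrays were below all 4 e18 arrays for 17 members and above them for 2, beside 36.1% and 30.2% of all genes. Set against e20 in the same way, d14 was below for 14 members and above for 1, beside 36.6% and 24.6%. Without PSMC3IP, 20 members were lower at d14 than at e18 and 18 than at e20. With the 3' to 5' difference as a covariate, 13 of 37 members were lower at d14 than at e18, close to the 36.1% of all genes. PSMD3 was higher, beside 29.9% of all genes, while PSME4, the member that rose without the covariate, was not called. Against e20 the counts in that fit were 25 lower and 1 higher, beside 32.4% and 20.9% of all genes.

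**Figure D3:**
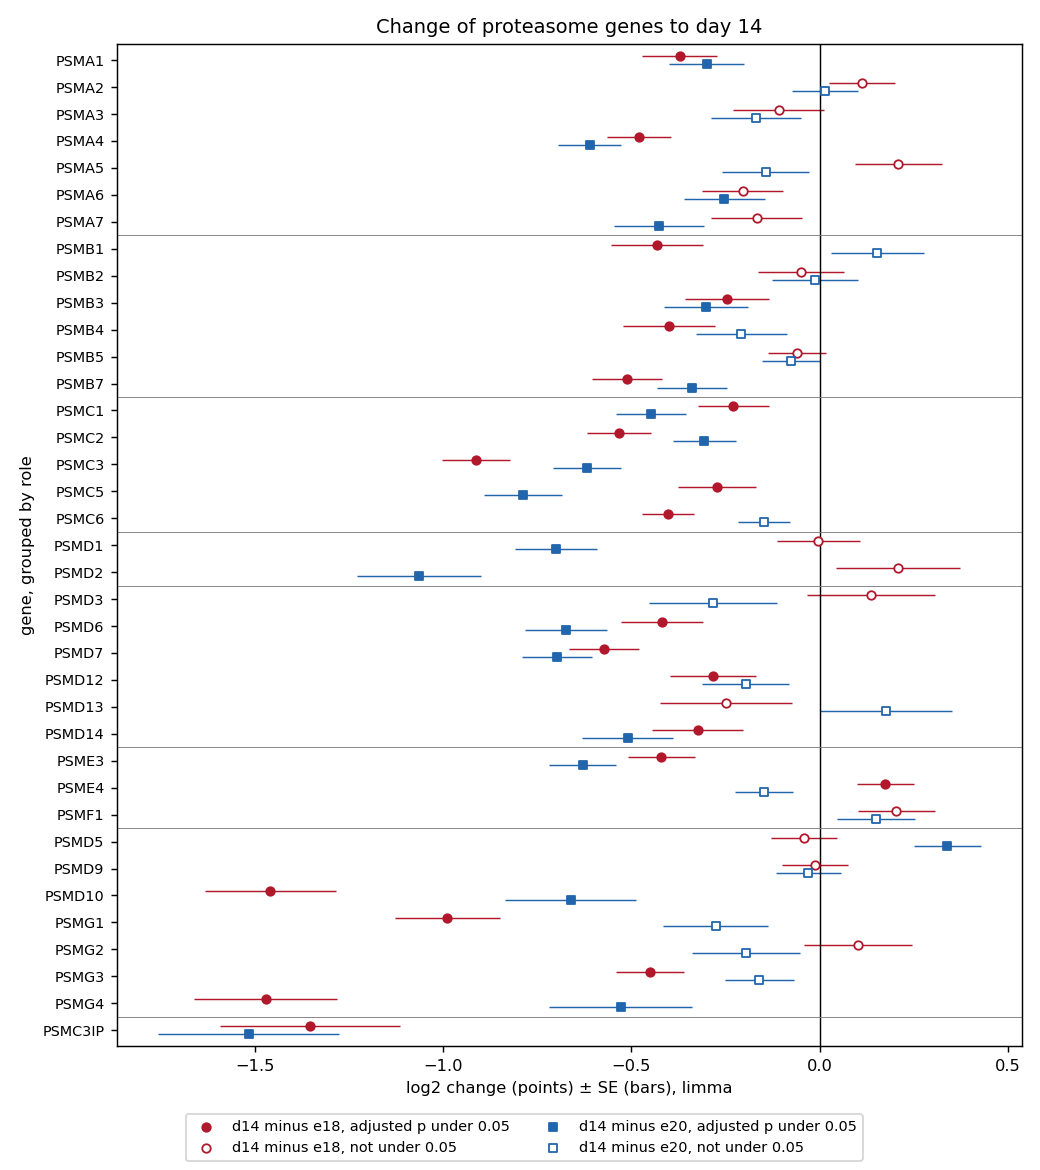
Change of each of the 37 genes at d14 relative to e18 (red circles) and relative to e20 (blue squares) in log2 units, with the SE from limma as bars and filled symbols for an adjusted p under 0.05. Most symbols lie left of 0, PSMD10, PSMG4 and PSMC3IP lie farthest left against e18, and PSMD1 and PSMD2 lie well left of 0 against e20 and not against e18.

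Alpha-ring subunits gate the barrel. In this ring 2 of 7 genes fell and none rose between d14 and e18, and 4 fell and none rose between d14 and e20, with medians of -0.17 and -0.25. Of all genes 40.5% were lower and 33.2% higher at d14 than at e18, and 40.4% lower and 27.2% higher than at e20. PSMA4 had log2 intensities of 11.57, 11.40, 11.31 and 11.31 on the d14 arrays, against 11.96, 11.90, 11.70 and 11.94 at e18 and 11.85, 11.94, 12.16 and 12.08 at e20. Every d14 array was below every embryonic array. The change was -0.48 ± 0.08 (SE) against e18, or 71.7% of its intensity (adjusted p = 1.74e-05), and -0.61 ± 0.08 against e20 (adjusted p = 7.45e-07). PSMA5 lay at the other end of the ring, with 10.86, 10.71, 10.59 and 10.60 at d14, against 10.73, 10.60, 10.29 and 10.30 at e18. These arrays overlapped, and the difference of 0.21 ± 0.12 did not pass the test (adjusted p = 0.106). PSMA5 was highest at hatch (11.01 ± 0.10, SD, n = 4). PSMA1 fell by 0.37 on the log2 scale against e18 (SE 0.10), and its change was -0.05 (adjusted p = 0.711) with the 3' to 5' covariate. PSMA2, PSMA3, PSMA6 and PSMA7 differed from e18 by 0.11, -0.11, -0.20 and -0.17 and did not pass the test. Against e20, PSMA1, PSMA6 and PSMA7 had log2 changes of -0.30, -0.25 and -0.43 and passed it. PSMA6 lost this call without array 3 or 4 of e20 (adjusted p = 0.0913 and 0.125) or array 2, 3 or 4 of d14 (0.0929, 0.0809 and 0.167).

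The beta ring carries the proteolytic sites. Here 4 of 6 genes fell between d14 and e18 and 2 of 6 between d14 and e20, with none higher. Of all genes 40.5% and 40.4% were lower in these comparisons. PSMB7, the subunit with trypsin-like activity, had 10.54, 10.58, 10.51 and 10.32 at d14, against 11.22, 11.03, 10.89 and 10.85 at e18. No d14 array reached the lowest e18 array. The log2 change was -0.51 ± 0.09 (adjusted p = 2.46e-05), and -0.34 ± 0.09 against e20 (adjusted p = 0.00241). PSMB2, a structural subunit, had 9.97, 9.76, 9.72 and 9.72 at d14, against 9.78, 10.06, 9.77 and 9.76 at e18. Its arrays overlapped and the difference did not pass the test (-0.05 ± 0.11, adjusted p = 0.702). The structural subunits PSMB1, PSMB3 and PSMB4 were lower at d14 than at e18, with log2 changes of -0.43, -0.25 and -0.40. PSMB3 passed narrowly (adjusted p = 0.0499) and lost the call when any 1 of 18 arrays was left out, at most to an adjusted p of 0.128 without array 2 of d14. Its fall against e20 (-0.30, adjusted p = 0.0191) was lost without array 3 or 4 of e20 (0.0572 and 0.0953) or array 2 of d14 (0.0585). The changes of PSMB1, PSMB3 and PSMB4 from e18 were 0.04, 0.04 and -0.16 with the 3' to 5' covariate, none of them called.

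All 5 measured ATPases of the base, the motor that unfolds substrates, fell between d14 and e18, beside 40.5% of all genes. Between d14 and e20, 4 of 5 fell, beside 40.4% of all genes. PSMC3 changed most. Its log2 intensities were 7.74, 7.71, 7.54 and 7.40 on the d14 arrays, against 8.33, 8.47, 8.60 and 8.65 at e18 and 8.24, 8.27, 8.28 and 8.07 at e20. Its age means ran 8.51, 8.22, 7.99, 7.74, 7.56, 7.52 and 7.60 through the series, each lower than the one before up to d7. The differences of e20 against e18, hatch against e20 and d1 against hatch passed the test, the last 2 of them narrowly (adjusted p = 0.0467 and 0.0284). The d14 level was 53.1% of that at e18 (log2 change -0.91 ± 0.09, adjusted p = 1.68e-09), and the change was -0.90 with the 3' to 5' covariate. In that fit PSMC2, PSMC3 and PSMC6 were called and PSMC1 (-0.12, adjusted p = 0.443) and PSMC5 (-0.30, adjusted p = 0.0843) were not. A second, dimmer probe set of PSMC3 stayed between 5.10 and 5.37 in its age means and changed by -0.04 between d14 and e18, so the 2 sets disagree.

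PSMC1 was the ATPase with the least change from e18. It had 9.77, 9.72, 9.84 and 9.86 at d14, against 10.24, 10.03, 9.98 and 9.86 at e18, with 1 e18 array as low as the highest d14 array. The change of -0.23 ± 0.09 (adjusted p = 0.031) lost its call without array 1 of e18 (-0.16, adjusted p = 0.14) and without array 1 or 2 of d14 (adjusted p = 0.0613 and 0.0801) or array 2 of e18 (0.0514). Against e20 the log2 change of PSMC1 was -0.45 ± 0.09 (adjusted p = 0.000176). PSMC5 followed a different course from PSMC3: its age means were 9.95 at e18, 10.46 at e20 and 10.60 at hatch, and 9.68 at d14. Its log2 change to d14 was -0.79 ± 0.10 against e20 (adjusted p = 3.14e-07) and -0.27 ± 0.10 against e18 (adjusted p = 0.0208). The call against e18 was lost without array 1 of e18 (adjusted p = 0.0831), array 2 of e18 (0.0572) or array 2 of d14 (0.0586). PSMC2 and PSMC6 were lower at d14 than at e18, with changes of -0.53 ± 0.08 and -0.40 ± 0.07 and no overlap of arrays, and PSMC6 missed the call against e20 (-0.15, adjusted p = 0.0595).

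The 2 large scaffolds of the base, PSMD1 and PSMD2, on which ubiquitin receptors and the lid dock, rose between the embryonic ages and fell again after hatch. PSMD2 had 9.29, 9.23, 9.18 and 9.04 at e20, against 7.79, 8.03, 7.82 and 8.01 at e18, 242% of the earlier intensity. The change of 1.27 ± 0.16 (adjusted p = 5.44e-07) was the largest among the members between those ages, and no arrays overlapped. At d14 PSMD2 had 8.21, 8.11, 8.13 and 8.04, just above all 4 e18 arrays, and the difference of 0.21 ± 0.16 did not pass the test (adjusted p = 0.261). Its change between d14 and e20 was -1.06 ± 0.16 (adjusted p = 3.69e-06).

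PSMD1 had 9.01, 9.18, 9.24 and 9.26 at e20, against 8.50, 8.50, 8.43 and 8.47 at e18. All e20 arrays were above all e18 arrays, and the change was 0.70 ± 0.11 (adjusted p = 8.86e-06). At d14 it had 8.51, 8.52, 8.41 and 8.44, which span the e18 arrays (adjusted p = 0.981 for the difference from e18). Its change between d14 and e20 was -0.70 ± 0.11 (adjusted p = 4.45e-06). A second, dimmer probe set of PSMD2 moved likewise between e20 and e18 (0.57) and between d14 and e20 (-0.67). PSMD1 also rose between e18 and e20 with the 3' to 5' covariate (0.85, adjusted p = 0.0282), and PSMD2 did not pass (0.77, adjusted p = 0.184). The e18 arrays, on which both scaffolds were low, are also those with the most exocrine pancreas transcripts, whose part in this result was not tested.

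**Figure D4:**
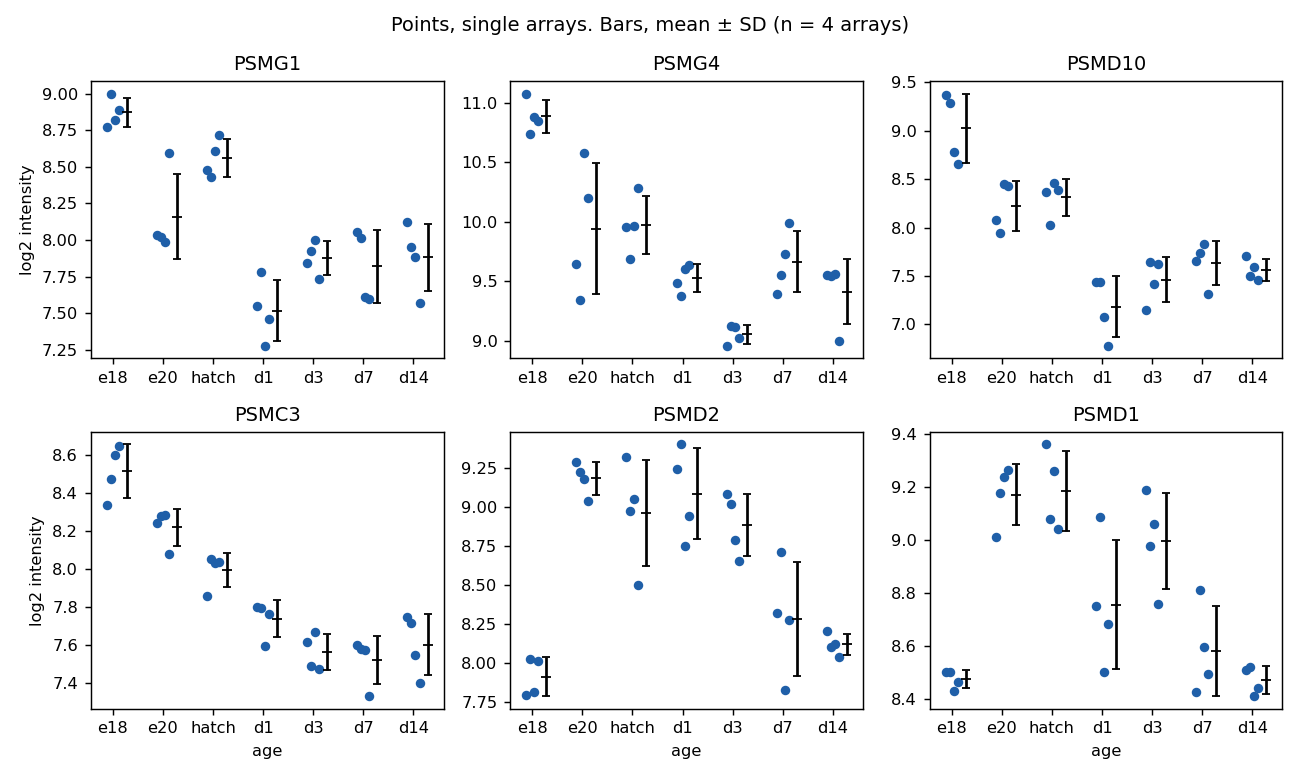
Log2 intensity by age of 3 assembly chaperones (PSMG1, PSMG4, PSMD10), the ATPase PSMC3 and the base scaffolds PSMD2 and PSMD1, with a point for each array and the mean ± SD (n = 4) beside it; each panel has its own vertical scale. The first 4 genes are highest at e18, and both scaffolds are low at e18, high at e20 and low again at d14.

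Of the lid subunits 4 of 6 fell between d14 and e18 and 3 of 6 between d14 and e20, with none higher. Of all genes 40.5% and 40.4% were lower in these comparisons. PSMD7, the partner of the deubiquitinating enzyme of the lid, had 10.00, 9.92, 9.91 and 9.83 at d14, against 10.58, 10.52, 10.42 and 10.43 at e18 and 10.48, 10.64, 10.63 and 10.70 at e20. The groups did not overlap, and the log2 changes were -0.57 ± 0.09 (adjusted p = 5.11e-06) against e18 and -0.70 ± 0.09 (adjusted p = 3.86e-07) against e20. Averaged with a second probe set close to background, the first of these was -0.08 (adjusted p = 0.42). PSMD3, a structural lid subunit, lay at the other end: it had 9.65, 9.23, 9.29 and 9.43 at d14, against 9.57, 9.50, 9.08 and 8.90 at e18. Those arrays overlapped (0.14 ± 0.17, adjusted p = 0.478), but with the 3' to 5' covariate PSMD3 was higher (0.53, adjusted p = 0.0443). PSMD14, the deubiquitinating enzyme itself, had log2 changes of -0.51 against e20 (adjusted p = 0.000692) and -0.32 against e18 (adjusted p = 0.0196). The call against e18 was lost without array 1 or 2 of e18 (adjusted p = 0.0632 and 0.0503) or array 3 or 4 of d14 (0.0721 and 0.0676), and with the 3' to 5' covariate (-0.18, adjusted p = 0.39). The structural subunits PSMD6 and PSMD12 were lower than at e18, with changes of -0.42 and -0.28. PSMD12 lost that call without array 1, 2 or 4 of e18 (adjusted p = 0.0548, 0.0536 and 0.0789) or array 1 or 2 of d14 (0.0792 and 0.0561), and its change was 0.06 with the covariate. PSMD13 did not pass (-0.25 ± 0.18, adjusted p = 0.207).

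Of the alternative activators, PSME3 fell and PSME4 rose between d14 and e18. PSME3, which caps the barrel in the nucleus without ATP, had 8.71, 8.59, 8.63 and 8.59 at d14, against 9.00, 9.13, 9.07 and 9.00 at e18 and 9.19, 9.38, 9.09 and 9.38 at e20. It fell by 0.42 on the log2 scale against e18 (SE 0.09, adjusted p = 0.000159) and by 0.63 against e20 (adjusted p = 1.01e-06), with no overlap. Its 2 probe sets above the filter disagree: the dimmer one averaged 8.36 at e18, 6.97 at e20, 8.32 at hatch, 6.57 at d1 and 7.76 at d14, so it was higher at d14 than at e20 by 0.79. PSME4, an activator linked to histone degradation, had 9.28, 9.43, 9.26 and 9.32 at d14, against 9.13, 9.17, 9.25 and 9.04 at e18. It was the only member above its e18 level by the test (0.17 ± 0.08, adjusted p = 0.0418), and it lost the call without array 1, 2 or 4 of e18 (adjusted p = 0.0732, 0.0566 and 0.128) or array 2 or 4 of d14 (0.13 and 0.0671), with the 3' to 5' covariate (0.18, adjusted p = 0.157) and with nearest arrays as a random block (adjusted p = 0.114). PSMF1, described as an inhibitor of the core in vitro, had 8.50, 8.71, 8.95 and 8.91 at d14, against 8.73, 8.56, 8.47 and 8.50 at e18, which overlap (0.20 ± 0.10, adjusted p = 0.0769).

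Among the assembly chaperones 4 of 7 fell between d14 and e18, beside 40.5% of all genes. The members with the lowest changes of all 37, PSMG4 and PSMD10, were among them. PSMG4, which with PSMG3 guides the alpha ring, had 9.55, 9.54, 9.56 and 9.00 at d14, against 11.07, 10.73, 10.88 and 10.85 at e18. The d14 level was 36.1% of that at e18 (-1.47 ± 0.19, adjusted p = 1.66e-07). Against e20, where it varied between 9.34 and 10.57, the change of -0.53 ± 0.19 (adjusted p = 0.0167) lost its call without array 3 or 4 of e20 (adjusted p = 0.115 and 0.0608) or array 4 of d14 (0.0831). PSMD10, also called gankyrin, a chaperone of the base ATPases that also binds cell cycle regulators, was at 36.4% of its e18 level (-1.46 ± 0.17, adjusted p = 4.34e-08). Its arrays read 7.71, 7.50, 7.60 and 7.46 at d14, against 9.37, 9.29, 8.78 and 8.65 at e18, with no overlap. PSMG1, which pairs with PSMG2 in the first step of ring assembly, was at 50.4% (-0.99 ± 0.14, adjusted p = 7.25e-07), with 8.12, 7.95, 7.88 and 7.57 at d14, against 8.77, 9.00, 8.82 and 8.89 at e18.

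Its partner PSMG2 had 7.50, 7.39, 7.35 and 7.32 at d14, against 7.46, 7.14, 7.36 and 7.18 at e18, which overlap (0.10 ± 0.14, adjusted p = 0.534). PSMG2 had its highest mean at d1 (7.89 ± 0.33), the age at which PSMG1 was lowest (7.52 ± 0.21). Its d1 arrays (7.51 to 8.32) overlapped those at hatch (7.39 to 8.04), and that change of 0.12 was not called. With the 3' to 5' covariate PSMG2 and PSMG1 changed by -0.19 and -0.46 between d1 and hatch, neither called. PSMG3 fell by 0.45 between d14 and e18 (SE 0.09, adjusted p = 9.56e-05), and with the 3' to 5' covariate PSMG1, PSMG3, PSMG4 and PSMD10 remained lower (-0.68, -0.37, -1.03 and -1.06). Of the other base chaperones, PSMD9 did not pass the test (-0.01 ± 0.09, adjusted p = 0.912). PSMD5 was the 1 member higher at d14 than at e20, with 8.33, 8.38, 8.51 and 8.39 at d14, against 8.08, 8.07, 8.00 and 8.10 at e20 and 8.59, 8.45, 8.38 and 8.35 at e18. The groups d14 and e20 did not overlap (0.34 ± 0.09, adjusted p = 0.00154), while d14 and e18 did (-0.04 ± 0.09, adjusted p = 0.686). Its second probe set was 0.39 higher at d14 than at e18, and the mean of both was 0.17 (adjusted p = 0.036). PSMC3IP, no proteasome subunit, had 6.06, 5.53, 5.89 and 4.71 at d14, against 7.60, 7.09, 6.47 and 6.44 at e18, a change of -1.35 ± 0.24 (adjusted p = 1.84e-05). The 13 proliferation markers were lower at d14 than at e18 along with these genes, and their part in these results was not tested.

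Taken in steps, several chaperones were already lower at e20. Between e20 and e18, 6 members rose and 10 fell, against 29.2% of all genes higher and 25% lower. The 10 that fell were PSMG1, PSMG3, PSMG4, PSMD5 and PSMD10 among the chaperones, the ATPases PSMC2, PSMC3 and PSMC6, the beta subunit PSMB1 and the lid subunit PSMD13. Second, dimmer probe sets of PSMD5, PSMC3 and PSMD13 were higher at e20 instead, by 0.25, 0.17 and 0.17. The PSMD13 set was close to the filter of 4, with means of 3.88 at e18 and 4.05 at e20. PSMG4 was at 52% of its e18 level (-0.94 ± 0.19, adjusted p = 0.00018), PSMD10 at 57.5% and PSMG1 at 61%. With the 3' to 5' covariate the log2 changes of these 3 were near 0, at -0.05, 0.02 and -0.09. The 6 that rose were PSMD2, PSMD1, PSMC5 (0.52 ± 0.10, adjusted p = 0.00017), PSMD3, PSMA5 and PSME4. Dimmer probe sets of PSME4 above the filter were lower at e20 instead (-0.25 and -0.40, against 0.32 for the set used). Calls were lost for PSMA5 without array 3 or 4 of e18, for PSMC2 without array 1 of e18 or array 1 or 2 of e20, for PSMD3 without array 3 or 4 of either age, and for PSMD13 without array 1 or 3 of e18 or array 1, 2 or 3 of e20 (adjusted p between 0.051 and 0.163). The 3' to 5' difference was 1.44 at e20, against 0.33 at e18. With it as a covariate limma called 3 members higher (PSMA1, PSMD1 and PSMD3), beside 9.28% of all genes. None was called lower (0 at an unadjusted p under 0.05), beside 6.65% of all genes. The median SE of a member's change was 0.24, against 0.11 without the covariate. By hatch 5 members had changed relative to e20, against 19.2% of all genes higher and 24.1% lower: PSMA2, PSMB1, PSMB3 and PSMG1 were higher by 0.26, 0.36, 0.30 and 0.40, and PSMC3 was lower (-0.22). The count of 5 was 3 with nearest arrays as a random block, 0 without array 1 of e20, 1 without array 2 of e20 or array 4 of hatch, and 3 without array 3 of hatch. PSMC3 lost its call when any 1 of 17 arrays was left out (adjusted p up to 0.145, without array 1 of hatch). For this pair of ages limma called 0 members with the 3' to 5' covariate, beside 19.5% of all genes, and 0 had an unadjusted p under 0.05.

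Of all pairs of consecutive ages, d1 and hatch had the most members called. Here 28 of 37 fell and none rose with limma (1 at an unadjusted p under 0.05), against 22.7% of all genes lower and 12.5% higher, with a median of -0.42 over the members and -0.05 over all genes. All 6 lid subunits, all 5 ATPases, 6 of 7 alpha-ring and 5 of 6 beta-ring subunits were among them, and 27 members had all 4 d1 arrays below all 4 hatch arrays, as had 22.3% of all genes. PSMD12 had 8.92, 9.17, 8.56 and 8.59 at d1, against 9.62, 9.51, 9.75 and 9.79 at hatch (-0.85 ± 0.11, adjusted p = 4.94e-06). PSMB1 had 11.02, 11.38, 10.78 and 10.80 at d1, against 11.86, 11.70, 11.74 and 11.94 at hatch (-0.82 ± 0.12, adjusted p = 1.71e-05). In both genes arrays 3 and 4 of d1 were the lowest. PSMD10 and PSMG1 fell to 45.8% and 48.6% of the hatch level, the lowest shares among the members. Calls were lost for PSMB2 without array 1 of hatch or array 3 or 4 of d1, for PSMC3 without array 2, 3 or 4 of hatch or array 3 of d1, and for PSMC5 without array 1, 2 or 3 of hatch or array 1, 3 or 4 of d1 (adjusted p between 0.0561 and 0.154). PSMD3 lost it without array 3 of d1 (0.06), PSMD9 without array 3 of hatch or array 1 of d1 (0.072 and 0.0668) and PSMD13 without array 4 of hatch (0.0529).

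The d1 arrays were also those with the largest 3' to 5' difference, at 1.96 against 0.92 at hatch, and their proliferation markers summed to 4724.3 to 5840.5, against 9030.5 to 10002.1 at hatch. With the 3' to 5' difference as a covariate limma called no member (2 at an unadjusted p under 0.05), beside 2.54% of all genes; the members' median change was then -0.19, 27 of 37 remained below 0, and the median SE was 0.22, against 0.11 without it. In that fit 31 of 37 members had a negative slope on the 3' to 5' difference within ages, against 50% over all genes, with a median of -0.17 log2 units per unit, against 0. The slope was called for PSMB1 (-0.87 ± 0.16, adjusted p = 0.00498) and PSMA1 (-0.59 ± 0.15, adjusted p = 0.0327), beside 3.31% of all genes. The 3' to 5' difference did not overlap between d1 (1.78 to 2.14) and hatch (0.72 to 1.03), so RNA quality and age cannot be told apart for this step. The same holds for e20 (1.12 to 1.71) against e18 (0.30 to 0.37), hatch against e20, and d3 (0.93 to 1.35) against d1. It also holds for d14 (0.79 to 1.03) against e18 and against e20, where the calls with the covariate do not separate the 2 either.

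**Figure D5:**
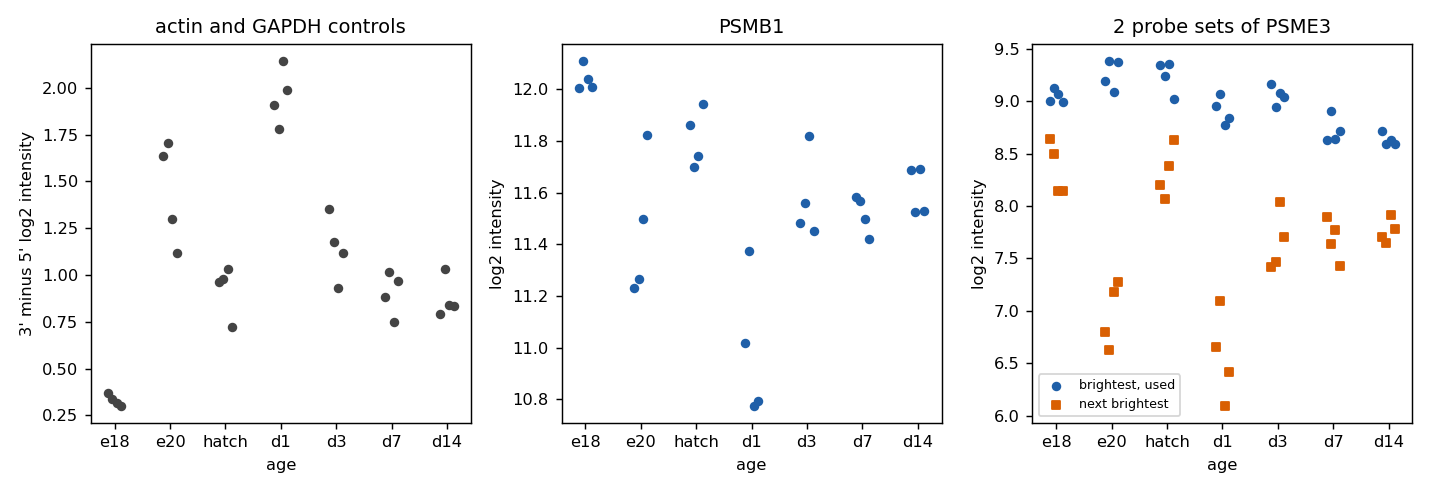
By age and with a point for each array: the log2 difference between 3' and 5' control probe sets, averaged over actin and GAPDH (left), PSMB1 (middle), and 2 probe sets of PSME3 (right). The controls are lowest at e18 and highest at d1. PSMB1 and the dimmer PSME3 set run the other way, high at e18 and hatch and low at e20 and d1. The brighter PSME3 set changes less, with means of 9.05 at e18, 9.26 at e20, 9.24 at hatch and 8.91 at d1.

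Between d3 and d1, 10 members rose and none fell (2 at an unadjusted p under 0.05), against 15% of all genes higher and 10.7% lower: PSMA1, PSMA3, PSMA5, PSMA6, PSMB1, PSMC6, PSMD3, PSMD7, PSMD12 and PSMD14. The largest were PSMB1 (0.59 ± 0.12) and PSMD12 (0.55 ± 0.11), both with an adjusted p of 0.000951. The count was 4 with nearest arrays as a random block (PSMA6, PSMB1, PSMD12 and PSMD14), 6 with each array centred on its median, 4 without array 3 of d1 or array 3 of d3 and 6 without array 4 of d1 or array 1 of d3. With the 3' to 5' covariate, PSMG4 alone was called, as lower (-1.12, adjusted p = 0.0435), beside 5.42% of all genes called. Between d7 and d3, 10 members fell (PSMA6, PSMA7, PSMC5, PSMD1, PSMD2, PSMD3, PSMD6, PSMD7, PSMD14 and PSME3) and PSMG4 rose (0.61 ± 0.19, adjusted p = 0.0337), against 8.38% of all genes lower and 5.07% higher. The scaffold PSMD2 fell by 0.60 (SE 0.16, adjusted p = 0.0164) and PSMD14 by 0.47 (SE 0.12, adjusted p = 0.0117). The count of 11 was 1 with nearest arrays as a random block (PSMD14, adjusted p = 0.0357), 7 with the 3' to 5' covariate and 7 with each array centred on its median. It was also 1 without array 1 of d3, 2 without array 3 of d7, 3 without array 4 of d7, 6 without array 3 of d3 and 7 without array 2 of d3. Of these PSMD14 lost its call without array 3 of d7 (adjusted p = 0.0571), PSMD2 without array 1 of d3 or array 3 of d7 (0.0665 and 0.0929), and PSMG4 without any single array of d3 or array 3 or 4 of d7 (0.0529 to 0.135). PSMA7 lost its call for any 1 of 19 arrays, and PSMD7 between d3 and d1 for any 1 of 23. Between d14 and d7 limma called no member, and 0 had an unadjusted p under 0.05, beside 0.858% of all genes called.

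Over the whole transition, the average of the 4 ages after hatch was set against that of e18 and e20. With limma no member rose (1 at an unadjusted p under 0.05) and 22 fell, against 34.1% of all genes higher and 45.3% lower, with medians of -0.24 over the members and -0.09 over all genes. All 5 ATPases, 4 lid, 4 alpha-ring and 3 beta-ring subunits, PSME3, PSMC3IP and 4 chaperones were among them, and neither base scaffold was (PSMD1 -0.12, PSMD2 0.05). Set against e20 alone, both scaffolds fell (PSMD1 -0.47, adjusted p = 3.75e-05, and PSMD2 -0.59, adjusted p = 0.000298). Against the average of e18 and e20, PSMA6 lost its call when any 1 of 14 arrays was left out. Among them were array 1 of e18 (-0.13, adjusted p = 0.0973) and array 4 of e20 (-0.13, adjusted p = 0.102). With the 3' to 5' covariate 14 of 37 members were lower, no more than the 41.3% of all genes. PSMD3 was higher (0.37, adjusted p = 0.022), beside 31.3% of all genes.

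Other genes of the pathway moved unevenly between d14 and e18, a comparison in which 33.2% of all genes rose and 40.5% fell. For the lists in this and the next paragraph only that comparison is given, without e20 and without the 3' to 5' covariate. The e18 arrays held exocrine pancreas transcripts and differed from d14 in RNA quality, and the part of either in these changes was not tested. Of 12 further proteasome-associated genes, 5 fell and 3 rose (median -0.05). The ubiquitin-chain editing enzyme UCHL5 (-0.62), the base chaperone PAAF1 (-0.53), the ubiquitin receptor ADRM1 (-0.47) and the beta-ring maturation factor POMP (-0.30) were lower, and PITHD1, a proteasome-binding protein, was higher (0.72). Of 8 regulators, 5 rose and 2 fell (median 0.72), among them NFE2L1, the transcription factor that induces proteasome genes when proteasome activity is short (0.87 ± 0.09, adjusted p = 6.37e-09), and NFE2L2, its oxidative stress relative (0.70 ± 0.11), from BACH1 at 1.00 to MAFF at -1.19. Of 6 genes for ubiquitin and its activation 2 rose and 2 fell (median -0.04, UBA6 0.51, RPS27A -0.52). Of 21 conjugating enzymes 8 rose and 9 fell (median -0.05), from UBE2J1 at 1.40 to UBE2T, an enzyme of DNA repair, at -2.02.

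Of 22 genes of the extracting ATPase VCP and of shuttle factors 10 rose and 4 fell (median 0.11, SEL1L 1.58, NPLOC4 -0.83). The counts here too stand beside 33.2% of all genes higher and 40.5% lower. The COP9 signalosome and eIF3 share the architecture of the lid. In the signalosome 2 of 9 genes rose and 3 fell (median 0.04, COPS7A 0.62, COPS7B -0.52), and all 10 measured subunits of eIF3, which starts translation, fell (median -0.99, EIF3J -0.50, EIF3M -1.57). All 8 subunits of the CCT chaperonin, a folding machine that is also a stacked ring, fell (median -1.13, CCT4 -0.78, CCT8 -1.37). Those medians stand beside -0.26 for the 26 core, base and lid genes of the proteasome. Of 16 genes for peptide handling and antigen processing, which use the peptides that proteasomes make, 11 rose and 1 fell (median 0.60), with the class I molecule BF2 at 5.91 and the aminopeptidase LAP3 at -0.63.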

How the data were processed

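The deposited values are a linear intensity for each probe set and array, made by the authors with GCRMA, per the submitters' processing notes; its version is not given in the sources used here. GCRMA corrects background by probe sequence, which holds dim probe sets near a constant. Here log2 was taken of 38535 probe sets. Gene names came from the platform annotation, and 4 probe sets that list PSMD4 with another gene were not used. A symbol's brightest probe set stood for it; 16 members had more than 1, and 7 more than 1 over the filter. Levels of different genes are not compared. The 28 arrays entered a single linear model with a level for each age, in limma 3.58.1 under R 4.3.3 (lmFit, contrasts.fit and eBayes, with 21 residual and 3.13 prior degrees of freedom). Tests were two-sided, with p-values adjusted by Benjamini and Hochberg over 8396 genes and called under 0.05. Background was the 95th percentile of 541 negative-control probe sets per array. The number of arrays limits the precision. On simulated data for d14 against e18 over 8396 genes, the same steps recovered 30% of 50 genes changed by 0.3 log2 units. They recovered 52% of 50 at 0.5, 86% of 50 at 1 and 100% of 50 at 2. Only these genes were changed there, whereas 33.2% of all genes rose and 40.5% fell in the data. The adjusted cutoff was therefore stricter in the simulation, and its noise was independent, without pairs of arrays. These shares do not give the fraction of changes missed in the data. Values in every array are given for the members with the highest and lowest change between d14 and e18 in each role, for members called against most of their role, and for examples chosen after their values were seen (PSMD10, PSMG1, PSMD12, PSMB1 and PSMC3IP). The members and lists were chosen with earlier results of these data known. No 2 arrays were identical (highest correlation 0.9937 across genes). Sequences of the members were not used here. Figures were drawn with matplotlib.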

Additional observations from a re-analysis of the deposited data

Results flagged for a closer look

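In 14 of 259 sets of 4 arrays (a member at an age), 1 array lay apart from the other 3 by more of the whole range than Dixon's critical value for 4 values; chance marks about 1 in 20 sets. The largest gap in log2 units was that of the lid subunit PSMD13, with 7.90 on array 4 of hatch, against 6.91 to 6.99 on the others (0.916 of the range); without that array PSMD13 no longer passed between d1 and hatch (-0.36, adjusted p = 0.0529). Array 4 of d14 was low for PSMG4 (0.965) and PSMB5 (0.926), array 4 of d7 for PSMC3 (0.896) and PSMB5 (0.833), and array 4 of d3 was low for PSMA7 (0.997) and high for PSMG3 (0.89). Array 3 of d3 was high for PSMA1 (0.854). At e20, array 1 was low for PSMA2 (0.895), array 2 for PSMB5 (0.899) and PSMF1 (0.879), and array 4 was high for PSMG1 (0.918). Array 1 of hatch was low for PSMC3 (0.884), and array 2 of e18 was high for PSMB2 (0.912).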

How the results depend on the processing

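No paired analysis was possible because the labels give no replicate numbers that ages share; the pairs of nearest arrays lie within ages. Alternatives chosen at the outset were quantile normalization, centring each array on its median, no or a stricter filter, the mean of all probe sets of a symbol, array weights, an intensity trend with robust moderation, values under background set to it, no e18 arrays, e20 alone before hatch, and leaving out each array. The 3' to 5' covariate and a random block of nearest arrays were added after seeing the data. Leaving out 1 array gave 32 to 34 members called over all ages, 16 to 22 for d14 against e18, 17 to 22 for d14 against e20, 21 to 25 after against before hatch, 13 to 19 for e20 against e18, 0 to 7 for hatch against e20, 24 to 29 for d1 against hatch, 4 to 15 for d3 against d1, 1 to 13 for d7 against d3 and 0 to 0 for d14 against d7. With the covariate the counts were 14 for d14 against e18, 3 for e20 against e18 and 0 for hatch against e20. They were 0 for d1 against hatch, 1 for d3 against d1 and 7 for d7 against d3. In the same order, that fit called 66%, 15.9%, 19.5%, 2.54%, 5.42% and 8.29% of all genes. With the block the member counts were 3 for hatch against e20, 4 for d3 against d1 and 1 for d7 against d3. Beside them stand 35.8%, 15.7% and 5.1% of all genes. Median centring gave 6 for d3 against d1 and 7 for d7 against d3, and hatch against e20 gave 8 with the mean of probe sets and 8 with array weights. The other 89 of 102 counts stayed within 1.5 times. Among changes called in at least 1 of the fits compared, signs turned with the covariate for PSMA1 (d1 against hatch 0.083, d3 against d1 -0.18, e20 against e18 0.58), PSMA3 (d3 against d1 -0.0688), PSMB1 (d1 against hatch 0.0766, d14 against e18 0.0423, d14 against e20 -0.34, d3 against d1 -0.12, e20 against e18 0.38, hatch against e20 -0.0907), PSMB3 (d1 against hatch 0.11, d14 against e18 0.0399), PSMC2 (d1 against hatch 0.044, e20 against e18 0.27), PSMD10 and PSMD13 (e20 against e18 0.0213 and 0.16), PSMD12 (d14 against e18 0.0551) and PSMD3 (d1 against hatch 0.18, d3 against d1 -0.10). They turned with the mean of probe sets for PSMA2 (d1 against hatch 0.0192), PSMB7 (d1 against hatch 0.13, hatch against e20 -0.46), PSMD5 (after against before hatch 0.13, d14 against e18 0.17), PSME3 (d14 against e20 0.053, e20 against e18 -0.43, hatch against e20 0.45) and PSME4 (e20 against e18 -0.11, hatch against e20 0.41). Some of these means included sets near the array backgrounds of 2.97 to 3.54. The other set of PSMA2 averaged 3.17 to 3.97 by age and failed the filter, and that of PSMB7 averaged 3.24 to 4.55. The other sets of PSME4 averaged 4.98 to 5.96, and that of PSMD5 7.53 to 7.96. Those of PSME3 averaged 6.57 to 8.36 and 2.24 to 2.35, and the dimmer failed the filter. With e20 alone before hatch PSMD2 was -0.59 and PSMD5 0.18. Why probe sets of a symbol differed was not tested, nor was the cause of the other turns. PSMB5 and PSMC3IP had low signal, with lowest readings of 5.79 and 4.71, above the array backgrounds of 2.97 to 3.54 (log2).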
